A study of Mus musculus with 34 samples.

Results

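The fat pad beside the epididymis was compared between mice fed a high fat diet for the first generation (HF0) and mice on a normal diet (STD). The comparison rests on the 6 arrays whose titles pair HF0 with STD, of 34 arrays in all: 2 of experiment 1, where RNA was taken with Trizol, and 4 of experiment 2, where Qiagen reagents were used. HF0 animals were high-fat-fed offspring of STD animals, so they ate this diet but their parents did not. The other arrays of the series carry later high fat generations (HF1, HF3 and HF4) and offspring put back on the normal diet. Every array holds both RNAs, 1 in Cy3 and 1 in Cy5, and each pairing was run in both dye orientations, which makes 1 dye swap in experiment 1 and 2 in experiment 2. The labels give no strain, age, length of feeding or number of animals behind an extract, and nothing says that the arrays of an experiment hold different RNA. The p-values over arrays therefore compare these extracts on these arrays, not the diets, and the spread they use may be technical.

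White adipocytes store triglyceride in a lipid droplet and secrete adipokines such as leptin, adiponectin and resistin. When a fat depot expands under a rich diet, macrophages gather around stressed adipocytes, and they switch on matrix-degrading and lipid-handling genes. Epididymal fat is attached to the epididymis, whose epithelium secretes defensins, lipocalins and protease inhibitors into the duct where sperm mature, and a piece of that duct can be cut with the fat.

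Values are log2 ratios of HF0 over STD, with the deposited ratio read as Cy5 over Cy3. If Cy5 was the numerator, a positive value means more RNA in HF0, and if Cy3 was, every sign turns. The labels do not say which. Values of single arrays are listed with HF0 in Cy3 first and HF0 in Cy5 second, for experiment 1 and then for the first and the second date of experiment 2. The first and second date are used here as names for the 2 dye swaps of experiment 2, and an effect of date was not tested. An experiment's value is the mean of its dye swaps, with the standard error of the fit over the 6 arrays (array error). Adjusted p-values are those of limma over all 22879 features, and a feature is called at an adjusted p under 0.05.

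The experiments did not give the same picture. Across features, which are not independent replicates, the 2 arrays of experiment 1 correlated with r = 0.11, and 55.9% of the features had opposite signs on them. In experiment 2 the arrays of a dye swap correlated with 0.38 and 0.42, arrays of the same dye orientation with 0.73 and 0.75, and the averages of the 2 dates with 0.88. The value of experiment 1 and that of experiment 2 correlated with -0.07, and 45.5% of the features had the same sign. The standard deviation over features was 0.28 in experiment 1 and 0.57 in experiment 2, and 231 against 1491 features lay beyond 1 in size (1.01% and 6.52%). All 6 arrays were positive for 481 features (2.1%) and negative for 781 (3.41%).

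**Figure D1:**
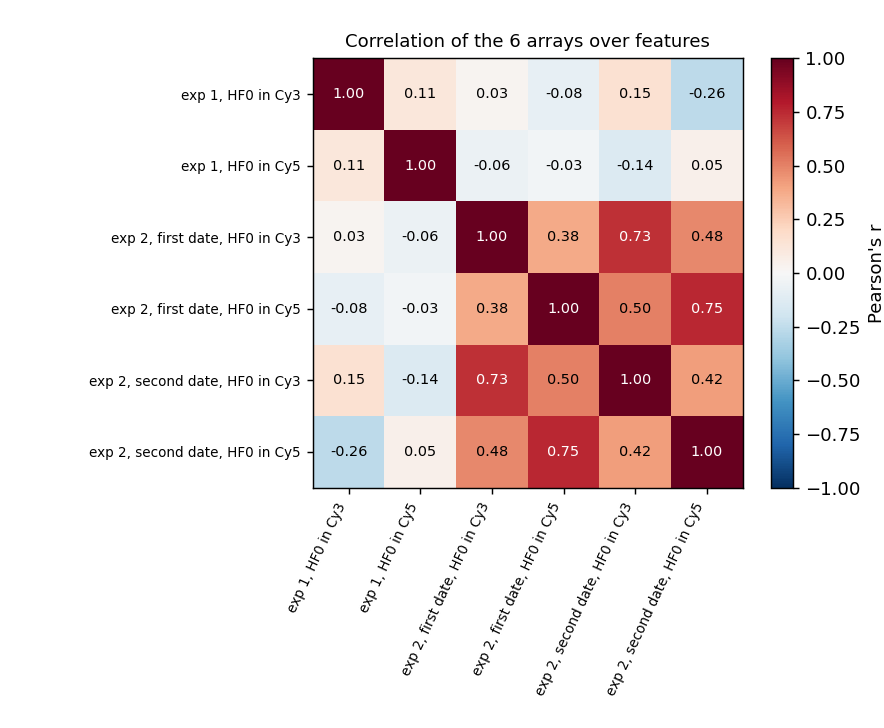
Pearson's r over all 22879 features between the 6 arrays, each turned to HF0 over STD; rows and columns are arrays, and colour runs from -1 to 1. The 4 arrays of experiment 2 correlate with each other (0.38 to 0.75), whereas arrays of experiment 1 correlate with those of experiment 2 between -0.26 and 0.15.

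Experiment 1 also holds arrays of HF3 and of HF4 against STD and against HF0. The difference of these pairings gives HF0 over STD by other routes, without the direct arrays. Over features, the direct value of experiment 1 correlated with the value by way of HF3 at -0.12 and with that by way of HF4 at -0.05, and the 2 routes correlated with each other at -0.11. The direct value of experiment 2 correlated with the route by way of HF3 at 0.58 and with that by way of HF4 at -0.03. The pairings of experiment 1 that carry the same group names thus did not add up to each other. The routes share no array with each other or with the direct comparison, and they are given beside the direct values.

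In the test over both experiments (n = 2), limma called 0 of 22879 features at an adjusted p under 0.05, and 290 (1.27%) had an unadjusted p under 0.05. The count was also 0 with a robust prior, with the 3 dye swaps as replicates and with group values from all 34 arrays. On simulated data of this design the same test recovered 0 of 100 features changed by 2 log2 units, so the count of 0 does not show that genes were alike. Against array error, 59 features were called in experiment 1 (0.258%) and 4121 in experiment 2 (18.0%). With either array of experiment 1 left out, experiment 1 had 0 calls. The value of experiment 2 differed from that of experiment 1 for 2141 features (9.36%).

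Genes of the epididymis epithelium gave the widest ratios. Of 30 measured genes, 27 were negative in experiment 1 (median -1.17) and 30 in experiment 2 (median -3.28), and 23 were negative on all 6 arrays. In experiment 2 the values of the list ran from -6.59 to -0.06, and its median was -3.12, -3.14, -3.50 and -3.24 on the 4 arrays. Called on the negative side were 8 in experiment 1 (0.192% of all features) and 28 in experiment 2 (11.0%). By way of HF3 and of HF4 the median was -0.49 and 0.08. Both RNAs were labelled as epididymal fat, yet genes of the neighbouring duct had ratios far from 0. With Cy5 as the numerator their transcripts were more abundant in the STD RNA, and the ratios were widest in experiment 2. The part of epididymal RNA in the values of the gene groups described next was not tested.

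The lipocalin gene Lcn5, which encodes a retinoid-binding protein secreted into the epididymal duct, stood at -4.39 and -3.55 in experiment 1 and -4.94, -3.61, -6.05 and -3.93 in experiment 2. All 6 arrays were far on the negative side, and the experiments overlapped. Its value was -3.97 ± 0.29 in experiment 1 (adjusted p = 0.00248) and -4.63 ± 0.20 in experiment 2 (adjusted p = 1.93e-06), a difference that was not called (adjusted p = 0.352). The cystatin gene Cst11, a protease inhibitor of the same epithelium, stood at -3.51 and -3.44 in experiment 1 and -7.04, -5.36, -8.06 and -5.91 in experiment 2. The arrays of experiment 2 all lay below those of experiment 1, with -3.47 ± 0.36 against -6.59 ± 0.26 (difference -3.12 ± 0.45, adjusted p = 0.00304). The beta-defensin gene Defb20 had -3.87 and -2.57 in experiment 1 and -6.18, -4.39, -7.12 and -4.88 in experiment 2, and the arrays with HF0 in Cy3 were the lowest within each date.

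Spink12, of the Kazal family of protease inhibitors, read -3.29 and -3.26 in experiment 1 and -6.07, -5.70, -6.34 and -5.90 in experiment 2. Dye orientation moved it by little, and the gap between the experiments was wider than the spread within either. Rnase9, an epididymal member of the ribonuclease family, was -2.63 and -2.35 in experiment 1 and -4.27, -3.82, -5.27 and -3.91 in experiment 2. Lcn8, a further lipocalin gene, was at -2.13 ± 0.36 and -5.46 ± 0.26, the Kunitz inhibitor gene Spint4 at -2.40 ± 0.18 and -6.00 ± 0.12, Defb12 at -2.11 ± 0.31 and -5.09 ± 0.22, and Rnase10 at -1.75 ± 0.34 and -6.49 ± 0.24 in experiments 1 and 2. Each of these was called in experiment 2, whereas Lcn8 and Rnase10 were not called in experiment 1 (adjusted p = 0.0652 and adjusted p = 0.102). The cystatin gene Cst13 went against the list in experiment 1 alone, with 1.09 and 1.28 there and -2.02, -2.24, -2.77 and -2.42 in experiment 2. It was positive on both arrays of experiment 1 and negative on all 4 of experiment 2. By way of HF3 and HF4 it was -2.83 and 1.43, where the list had medians of -0.49 and 0.08 and male germ cell genes -3.26 and -0.04.

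The indirect routes of experiment 1 gave other sizes for the same genes. Lcn5 was -2.32 by way of HF3 and -0.35 by way of HF4, Cst11 0.16 and -2.78, Defb20 -2.05 and -2.37, and Spint4 -1.67 and 1.10. Of these, Defb20 alone was beyond 2 on the negative side on both routes.

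Because these genes moved together, the promoters of 3 of them are shown (RefSeq, GRCm38.p6, windows of 300 bases that end shortly after the start of transcription). Capitals mark the TATA box (spelled TATAAA), the CCAAT box (spelled as its name) and the androgen receptor core site (spelled AGAACA). Both strands were searched, and no marked matches overlapped in the windows shown. Lcn5 lies at chr2:25657702-25658001, plus strand, Defb20 at chr2:152476813-152477112, plus strand and Rnase9 at chr14:51041818-51042117, minus strand.
Lcn5: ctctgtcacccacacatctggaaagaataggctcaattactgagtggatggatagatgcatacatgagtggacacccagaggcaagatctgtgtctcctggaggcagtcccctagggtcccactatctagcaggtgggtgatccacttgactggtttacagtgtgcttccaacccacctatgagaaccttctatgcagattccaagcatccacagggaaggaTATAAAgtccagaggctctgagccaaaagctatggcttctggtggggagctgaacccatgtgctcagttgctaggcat
Defb20: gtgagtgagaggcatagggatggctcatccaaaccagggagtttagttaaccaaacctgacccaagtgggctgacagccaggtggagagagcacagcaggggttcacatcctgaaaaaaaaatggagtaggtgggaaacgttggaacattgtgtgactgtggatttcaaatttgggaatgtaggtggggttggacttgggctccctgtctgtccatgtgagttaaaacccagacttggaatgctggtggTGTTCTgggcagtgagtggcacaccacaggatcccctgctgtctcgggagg
Rnase9: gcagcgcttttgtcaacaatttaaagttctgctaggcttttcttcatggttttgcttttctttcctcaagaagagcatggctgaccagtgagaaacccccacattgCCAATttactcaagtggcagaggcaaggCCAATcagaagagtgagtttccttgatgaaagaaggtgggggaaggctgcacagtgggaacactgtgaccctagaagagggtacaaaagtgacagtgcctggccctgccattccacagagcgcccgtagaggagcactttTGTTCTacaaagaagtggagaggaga
The windows hold 1 TATA box in Lcn5, 1 androgen receptor core site in Defb20, and 2 CCAAT boxes and 1 such core site in Rnase9. Of the 30 measured epididymis genes 22 had a promoter entry, and 13 of them (59.1%) held the androgen receptor core site, against 19.0% of all 32851 promoters of this length. Among those negative on all 6 arrays it was 9 of 15 (60.0%). The TATA box was in 4 of 22 (18.2%, against 13.6%). A match describes the letters of the window and is no evidence of a bound site.

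Male germ cell genes were split between the experiments. Of 32 measured genes, 21 were positive in experiment 1 (median 0.12) and 31 were negative in experiment 2 (median -1.86), where 28 were called negative (11.0% of all features). With group values from all 34 arrays the median of experiment 1 was -0.59. The difference between experiments was called for 24, and 5.6% of all features had a called negative difference. By way of HF3 all 32 were negative (median -3.26), and by way of HF4 16 were positive (median -0.04). Tnp1 encodes a transition protein of sperm chromatin and stood at 0.26 and 1.22 in experiment 1 and -5.17, -4.48, -5.14 and -4.78 in experiment 2. Its 2 groups of arrays lay on opposite sides of 0, and the difference of -5.64 ± 0.23 was called (adjusted p = 3.1e-05). Tnp2 had the same pattern at 0.73 ± 0.19 and -4.90 ± 0.14. Prm1, a protamine gene, had -0.26 and 0.31 in experiment 1 and -5.01, -4.74, -5.08 and -4.24 in experiment 2, with the arrays of experiment 1 on either side of 0.

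Prm2 stood at -0.34 ± 0.22 and -3.44 ± 0.15, and it was negative on all 6 arrays, as were Odf1, a protein of the sperm tail (-0.20 ± 0.19 and -1.70 ± 0.14), and the testis form of phosphoglycerate kinase, Pgk2 (-0.15 ± 0.23 and -1.87 ± 0.16). Piwil1, which binds piRNAs in spermatocytes, was at 1.64 and 1.87 in experiment 1 and -1.41, -2.32, -3.11 and -3.42 in experiment 2. It was positive on both arrays of experiment 1, and its difference between experiments was -4.32 ± 0.49 (adjusted p = 0.00101). Leydig and Sertoli cell genes had medians of -0.04 and -0.06, and genes of the seminal vesicle and prostate -0.07 and 0.10, so neither list median stood far from that of all features, which was 0.01 and 0.02. In experiment 2, however, 3 of 9 Leydig and Sertoli cell genes were called negative and 1 positive, against 11.0% and 7.05% of all features. Of 11 seminal vesicle and prostate genes 1 was called positive and 0 negative.

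**Figure D2:**
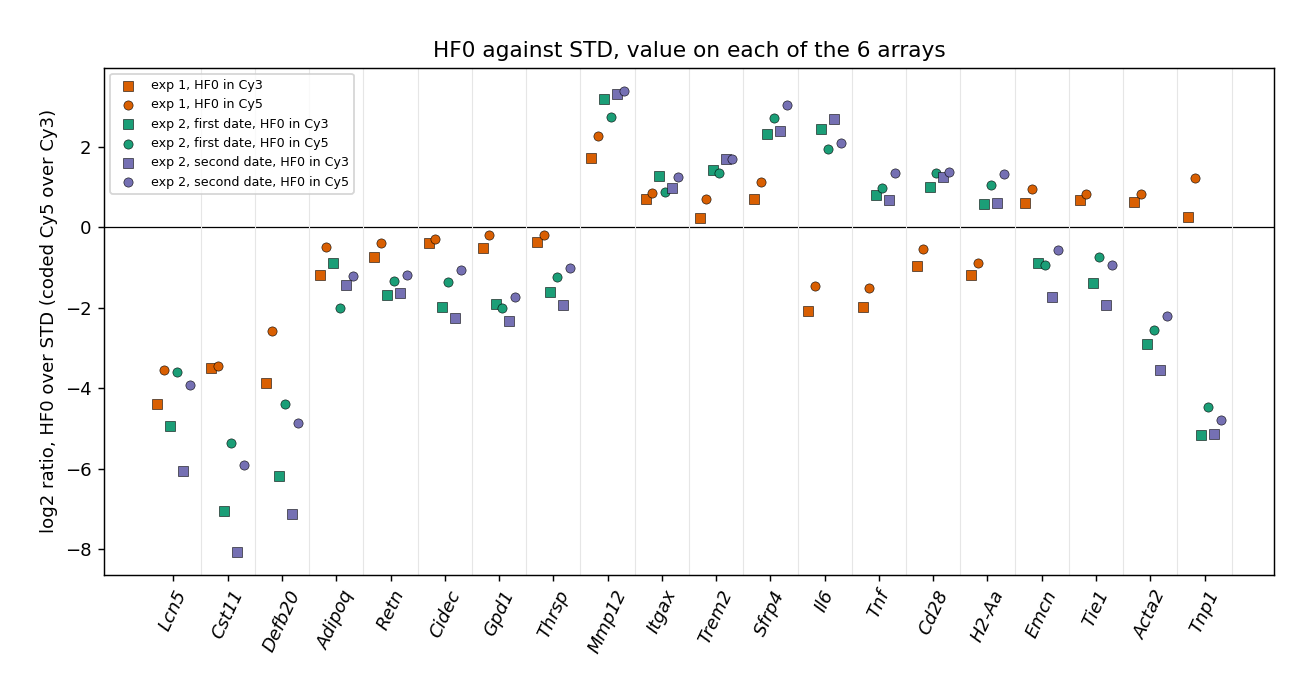
Log2 ratio of HF0 over STD on each of the 6 arrays for 20 genes. Squares are arrays with HF0 in Cy3 and circles those with HF0 in Cy5; orange is experiment 1, green and purple are the first and second date of experiment 2. Epididymis genes and Adipoq are negative and Mmp12 is positive on all 6 arrays, whereas Il6, Tnf, Emcn and Tnp1 lie on opposite sides of 0 in the experiments.

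Genes for storing lipid and for adipocyte identity leaned to the negative side in both experiments. Of 25 measured genes 18 were negative in experiment 1 (median -0.11) and 21 in experiment 2 (median -0.53), against 46.8% and 46.9% of all features. None was called in experiment 1, and 12 were called in experiment 2, all on the negative side, against 11.0% of all features. Of the list, 8 genes were negative on all 6 arrays, and 11 (44.0%) were negative by both direct values and both indirect routes, against 4.88% of all features. In whole tissue, a smaller share of adipocytes among the cells and less RNA per adipocyte cannot be told apart.

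Adipoq encodes adiponectin, an insulin-sensitizing adipokine. It stood at -1.19 and -0.48 in experiment 1 and -0.89, -2.0, -1.44 and -1.22 in experiment 2. All 6 arrays were negative and the experiments overlapped. The value was -0.84 ± 0.28 in experiment 1, which was not called (adjusted p = 0.509), and -1.39 ± 0.20 in experiment 2 (adjusted p = 0.00137). The difference between experiments was not called either (adjusted p = 0.452), and the routes by way of HF3 and HF4 gave -0.97 and -1.73. Retn, the resistin gene, had -0.74 and -0.40 in experiment 1 and -1.68, -1.34, -1.63 and -1.19 in experiment 2. The arrays of experiment 2 all lay below those of experiment 1, and the value was -0.57 ± 0.17 against -1.46 ± 0.12 (adjusted p = 6.35e-05 in experiment 2). By the 2 routes Retn was -1.45 and -2.30.

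The promoter of Adipoq is shown because the gene kept its side in all estimates. It lies at chr16:23146286-23146585, plus strand in GRCm38.p6 (RefSeq), with capitals for the same motifs.
Adipoq: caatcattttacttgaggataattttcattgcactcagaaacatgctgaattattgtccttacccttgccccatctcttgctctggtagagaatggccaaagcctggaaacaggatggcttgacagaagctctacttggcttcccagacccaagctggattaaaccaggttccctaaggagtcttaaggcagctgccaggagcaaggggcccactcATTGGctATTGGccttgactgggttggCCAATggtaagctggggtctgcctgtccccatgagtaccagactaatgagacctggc
The window holds 3 CCAAT matches over both strands and no match to the other motifs. Of the adipocyte list 17 genes had an entry, and 4 (23.5%) held CCAAT, against 37.4% of all promoters, so the run of matches in Adipoq was not shared by the list.

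Cidec, which coats the lipid droplet and drives its growth, stood at -0.38 and -0.28 in experiment 1 and -1.99, -1.36, -2.26 and -1.07 in experiment 2. Its experiments did not overlap, and the value of experiment 2 was -1.67 ± 0.15 (adjusted p = 9.82e-05). Gpd1 makes the glycerol backbone of triglyceride and had -0.53 and -0.20 in experiment 1 and -1.91, -2.0, -2.34 and -1.74 in experiment 2. It was the lowest of the named storage genes in experiment 2 at -2.0 ± 0.14, against -0.37 ± 0.19 in experiment 1 (difference adjusted p = 0.00319). Pparg, the master regulator of adipocyte differentiation, was -0.55 and -0.77 in experiment 1 and -0.48, -0.73, 0.64 and -0.54 in experiment 2. The second-date array with HF0 in Cy3 was positive, and neither experiment was called (-0.66 ± 0.27 and -0.28 ± 0.19).

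Lep, the leptin gene, turned between the experiments without a call, at 0.46 and 0.37 in experiment 1 and -0.31, -0.41, -0.67 and 0.01 in experiment 2. The difference was -0.76 ± 0.25 (adjusted p = 0.106), and the routes gave 0.36 and -1.68. Slc2a4, the insulin-dependent glucose transporter, was at 0.11 ± 0.23 and -1.08 ± 0.16 (adjusted p = 0.0016 in experiment 2). The fatty acid transporter gene Cd36 and Mgll, a monoglyceride lipase, were positive on both arrays of experiment 1 and negative on all 4 of experiment 2. Cd36 had 0.47 ± 0.18 against -0.67 ± 0.13 (adjusted p = 0.0136 for the difference) and Mgll 0.51 ± 0.26 against -1.11 ± 0.18 (adjusted p = 0.0135). For Cd36 the routes by way of HF3 and HF4 gave -0.65 and -3.35. The glycerol channel gene Aqp7 had the same turn of sign in all arrays at 0.34 and 0.24 in experiment 1 and -0.86, -0.03, -0.10 and -0.14 in experiment 2, but its values were not called.

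**Figure D3:**
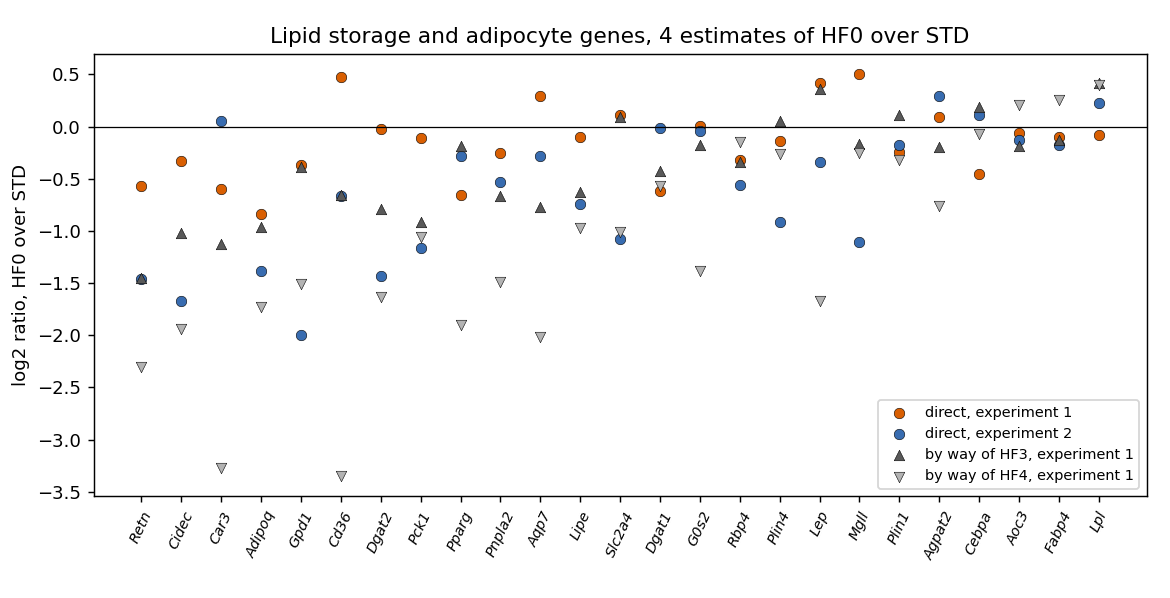
Log2 ratio of HF0 over STD for the 25 measured storage and adipocyte genes, ordered by the mean of 4 estimates: the direct values of experiments 1 and 2 (circles) and the values by way of HF3 and HF4 in experiment 1 (triangles). All 4 estimates are negative for 11 genes, and those by way of HF4 reach the lowest values.

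De novo lipogenesis makes fatty acids from sugar and usually falls when dietary fat is plentiful. Of 16 measured genes 9 were negative in experiment 1 and 11 in experiment 2 (medians -0.02 and -0.20), and 6 were called negative in experiment 2 (11.0% of all features). On all 4 estimates 5 of 16 were negative (31.2%) and 0 positive, against 4.88% and 7.73% of all features. Thrsp, a regulator of lipogenesis, was negative on all 6 arrays at -0.37 and -0.20 in experiment 1 and -1.62, -1.23, -1.93 and -1.0 in experiment 2. Its value was -0.28 ± 0.20 in experiment 1 and -1.45 ± 0.14 in experiment 2 (adjusted p = 0.000128), and -1.44 and -2.48 by the 2 routes. Scd1, the stearoyl-CoA desaturase, stood at -0.08 and 0.36 in experiment 1 and -1.92, -1.30, -1.85 and -1.13 in experiment 2, so that the 2 experiments did not overlap (0.14 ± 0.18 and -1.55 ± 0.13, adjusted p = 4.78e-05 in experiment 2). The elongase gene Elovl6 and malic enzyme Me1 were slightly positive on both arrays of experiment 1 (0.15 ± 0.18 and 0.09 ± 0.18) and negative on all arrays of experiment 2 (-1.33 ± 0.13 and -1.22 ± 0.12). Fasn, the fatty acid synthase, had 0.47 and -0.12 in experiment 1 and 0.78, -0.84, 1.10 and -0.34 in experiment 2, with both arrays of experiment 2 that had HF0 in Cy3 positive and both with HF0 in Cy5 negative.

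Other metabolic lists moved little in experiment 1. Respiratory chain and ATP synthase genes were positive for 14 of 28 there (median 0.00) and negative for 26 of 28 in experiment 2 (median -0.41, with 10 called negative against 11.0% of all features). Ndufa9, a subunit of complex I, was the 1 gene negative on all 6 arrays (-0.33 ± 0.18 and -0.48 ± 0.13). Uqcrfs1, the iron-sulfur subunit of complex III, went the other way from experiment 1 to experiment 2 (-0.38 ± 0.18 and 0.34 ± 0.13, neither called). Fatty acid oxidation genes had medians of -0.03 and -0.12 with 1 of 18 called negative in experiment 2, below the share of 11.0% of all features, and thermogenic genes 0.08 and 0.01. On all 4 estimates 5 of 18 oxidation genes were negative (27.8%) and 1 was positive (5.56%), against 4.88% and 7.73% of all features. Ucp1, the uncoupling protein of brown fat, stood at 0.18 and 0.10 in experiment 1 and 0.04, 1.86, -0.46 and 0.34 in experiment 2, and the positive value of experiment 2 came mainly from 1 array.

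Cholesterol synthesis and uptake lay on opposite sides, with 13 of 15 genes positive in experiment 1 (median 0.18) and 12 negative in experiment 2 (median -0.25, 6 called negative against 11.0% of all features). The squalene epoxidase gene Sqle was at 0.45 and 0.75 in experiment 1 and -0.78, -0.58, -1.30 and -0.20 in experiment 2, and the sterol demethylase gene Cyp51 at 0.60 ± 0.19 and -0.60 ± 0.14. The farnesyl diphosphate synthase gene Fdps turned the same way (0.41 ± 0.28 and -1.14 ± 0.20), whereas Idi1, an isomerase of the same route, was positive on all 6 arrays (0.53 ± 0.20 and 0.28 ± 0.14). Calls of Sqle and Cyp51 in experiment 2 were lost with the second-date array with HF0 in Cy3 left out (values of -0.44 and -0.37), and that of Cyp51 also without the second-date array with HF0 in Cy5 (-0.83).

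The 5 genes that rise with expanding fat mass had medians of -0.04 and 0.04, with 2 positive in experiment 1 and 3 in experiment 2. On all 4 estimates Mest and Sfrp5 were negative and Sfrp4 was positive. Sfrp4, a secreted inhibitor of Wnt signalling, stood out at 0.71 and 1.12 in experiment 1 and 2.30, 2.70, 2.39 and 3.04 in experiment 2. It was positive on all 6 arrays and on both routes (1.68 and 1.07), with 0.92 ± 0.18 in experiment 1 (adjusted p = 0.112) and 2.61 ± 0.13 in experiment 2 (adjusted p = 3.18e-06). Mest, an imprinted gene of expanding adipocytes, had -0.04 ± 0.23 and -0.47 ± 0.17, and neither was called. Insulin and growth factor signalling had medians of -0.05 and 0.23. The insulin receptor gene Insr lay at -0.02 ± 0.23 and 0.25 ± 0.16, and its 2 probes differed in sign in experiment 1 (-0.07 and 0.03).

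Markers of recruited and lipid-laden macrophages were divided in experiment 1 and positive in experiment 2. Of 21 measured genes 9 were positive in experiment 1 (median -0.06) and 19 in experiment 2 (median 0.94), against 53.2% and 53.1% of all features. Called positive were 1 gene in experiment 1 (0.0656% of all features) and 15 in experiment 2 (7.05%). Those positive on all 6 arrays were Mmp12, Itgax, Trem2 and Cd68, which is 4 of 21 against 2.1% of all features. By way of HF3 19 of 21 were positive (median 1.12), but by way of HF4 8 were (median -0.20). With group values from all 34 arrays the median of experiment 1 was 0.15. The epididymis genes had medians of -1.17 and -3.28 in the same experiments, and their part in the macrophage values was not tested.

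Mmp12, the macrophage elastase, led the genes positive on all 6 arrays, at 1.71 and 2.25 in experiment 1 and 3.19, 2.73, 3.32 and 3.39 in experiment 2. The groups did not overlap, with 1.98 ± 0.23 in experiment 1 (adjusted p = 0.0196) and 3.16 ± 0.16 in experiment 2 (adjusted p = 3.82e-06), and the difference was called (adjusted p = 0.0322). By way of HF3 Mmp12 was 1.12, but by way of HF4 it was -0.24. Itgax encodes CD11c, the integrin of inflammatory fat macrophages, and had 0.70 and 0.85 in experiment 1 and 1.27, 0.88, 0.98 and 1.25 in experiment 2. It was at 0.77 ± 0.19 and 1.10 ± 0.14, called in experiment 2 (adjusted p = 0.000569), with no call of the difference (adjusted p = 0.539). By way of HF3 Itgax was 0.97, but by way of HF4 it was -0.42.

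Trem2, a lipid receptor of macrophages in obese fat, stood at 0.47 ± 0.20 in experiment 1, not called, and at 1.54 ± 0.14 in experiment 2 (adjusted p = 0.000104). Cd68, a lysosomal membrane protein of macrophages, was at 0.01 and 0.32 in experiment 1 and 1.12, 1.16, 0.23 and 1.77 in experiment 2. Its routes by way of HF3 and HF4 gave 1.21 and -0.46. Adgre1, a surface receptor used to mark mouse macrophages, stood at -0.37 and 0.24 in experiment 1 and 1.13, -0.08, 0.63 and 0.92 in experiment 2 and was called in neither. Cd14, the co-receptor for endotoxin, and Cd53, a tetraspanin of white cells, were negative on both arrays of experiment 1 (-1.01 ± 0.19 and -0.63 ± 0.19) and positive on all 4 of experiment 2 (0.85 ± 0.13 and 1.23 ± 0.13).

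Resident macrophage genes showed that turn as a list, with 10 of 11 negative in experiment 1 (median -0.39) and 11 of 11 positive in experiment 2 (median 0.75, 7 called positive against 7.05% of all features). The median was 1.15 by way of HF3 and -0.58 by way of HF4, and with group values from all 34 arrays it was 0.06 in experiment 1. The haemoglobin scavenger receptor gene Cd163 stood at -0.96 and -0.05 in experiment 1 and 1.58, 1.33, 1.53 and 1.76 in experiment 2, a difference of 2.06 ± 0.28 (adjusted p = 0.00229). Folr2, a folate receptor of resident macrophages, was at -0.43 ± 0.25 and 0.93 ± 0.18. The call of Folr2 in experiment 2 was lost without the second-date array with HF0 in Cy5, where the value was 0.51.

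Lysosome genes were positive for 11 of 17 in experiment 1 and 16 of 17 in experiment 2 (medians 0.10 and 0.49), with 7 called positive in experiment 2 (7.05% of all features). Ctsd, the protease cathepsin D, was positive on all 6 arrays and called in neither experiment. It stood at 0.13 and 0.50 in experiment 1 and 0.32, 0.32, 0.40 and 0.28 in experiment 2. By way of HF3 Ctsd was 0.21, and by way of HF4 it was -2.44. Extracellular matrix genes were positive for 19 and 24 of 31 (medians 0.04 and 0.28, 8 called positive and 1 negative in experiment 2, against 7.05% and 11.0% of all features). Loxl1, which crosslinks elastin, had 0.33 and 0.78 in experiment 1 and 0.79, 1.14, 0.87 and 1.43 in experiment 2, and its value in experiment 2 was 1.06 ± 0.13 (adjusted p = 0.000473). Col5a2, a fibrillar collagen chain, was at 0.42 ± 0.18 and 0.48 ± 0.13, and Timp1, an inhibitor of matrix proteases, at 0.14 ± 0.23 and 0.42 ± 0.17.

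Genes of fibroblasts and adipocyte precursors had medians of 0.01 and 0.49, with 5 of 11 called positive in experiment 2 (7.05% of all features). Mfap5, a protein of elastic microfibrils, was positive on all 6 arrays at 0.23 and 0.73 in experiment 1 and 1.15, 1.63, 0.91 and 2.04 in experiment 2. Fap, a protease of activated fibroblasts, was also positive throughout (0.27 ± 0.19 and 0.85 ± 0.13, adjusted p = 0.0021 in experiment 2). On all 4 estimates 4 of these 11 genes were positive (36.4%), and 5 of 31 matrix genes (16.1%), against 7.73% of all features.

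Cytokines and chemokines lay on opposite sides in the experiments. Of 28 genes 24 were negative in experiment 1 (median -0.47, 3 called negative against 0.192% of all features) and 23 positive in experiment 2 (median 0.69, 15 called positive against 7.05%). Of these, 9 were negative on both arrays of experiment 1 and positive on all 4 of experiment 2, against 5.35% of all features, and 15 had a called difference, against 3.75% of all features with a called positive one. By way of HF3 and HF4, which use other arrays of experiment 1, the median was 0.70 and 0.54. With group values from all 34 arrays the median of experiment 1 was 0.02, so among these estimates the direct arrays of experiment 1 alone were on the negative side.

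Il6 stood at -2.08 and -1.46 in experiment 1 and 2.43, 1.95, 2.69 and 2.08 in experiment 2, and had the largest positive difference between experiments of all genes with a symbol (4.06 ± 0.29, adjusted p = 0.000205). It was called in both, as -1.77 ± 0.24 (adjusted p = 0.0285) and 2.29 ± 0.17 (adjusted p = 2.86e-05). Tnf, the tumour necrosis factor gene, had -1.99 and -1.51 in experiment 1 and 0.81, 0.96, 0.67 and 1.34 in experiment 2. Its routes by way of HF3 and HF4 gave 2.18 and 1.41, against -1.75 ± 0.19 on the direct arrays of the same experiment. Ifng, the interferon of T cells and natural killer cells, was next in the order of differences at 3.62 ± 0.24 (-1.62 ± 0.20 and 2.0 ± 0.14). The monocyte attractant Ccl2 was -0.79 and -0.06 in experiment 1 and 0.42, 1.49, -0.32 and 1.86 in experiment 2, with 1 of the arrays of experiment 2 negative. Without the second-date array with HF0 in Cy5 its value was 0.32 and was not called, and the neutrophil attractant Cxcl2 (-1.18 ± 0.38 and 1.28 ± 0.27) likewise lost its call at 0.88.

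T cell and natural killer cell genes divided completely by the direct values. Negative in experiment 1 were 14 of 14 (median -0.65), and positive in experiment 2 were 14 of 14 (median 0.71, 10 called positive against 7.05% of all features). The routes from other arrays of experiment 1 had 12 positive by way of HF3 (median 0.37) and 6 by way of HF4 (median -0.09). The co-stimulatory receptor gene Cd28 stood at -0.97 and -0.54 in experiment 1 and 0.99, 1.35, 1.24 and 1.37 in experiment 2, and the difference was 1.99 ± 0.22 (adjusted p = 0.000905). Gzmb, the cytotoxic granule protease, was -1.0 ± 0.22 and 1.01 ± 0.15, and Nkg7, a granule protein of killer cells, -1.0 ± 0.22 and 0.91 ± 0.16. B cell genes were closer to 0 in experiment 1 (median -0.06) and positive for 8 of 9 in experiment 2 (median 0.60). Ms4a1, the CD20 gene, was positive on all 6 arrays (0.37 and 0.50 in experiment 1 and 0.57, 0.55, 0.33 and 0.94 in experiment 2).

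Interferon response genes were negative for 19 of 20 in experiment 1 (median -0.75, 3 called negative against 0.192% of all features) and had a median of 0.01 in experiment 2. The routes from other arrays of experiment 1 had 18 positive by way of HF3 (median 0.16) and 3 by way of HF4 (median -0.72). Irf7, a transcription factor of the response, was negative on all 6 arrays at -2.06 and -1.63 in experiment 1 and -0.82, -0.42, -0.08 and -0.47 in experiment 2, and its experiments did not overlap. By way of HF3 Irf7 was 0.49, and by way of HF4 it was -1.92. The oligoadenylate synthetase gene Oas2 turned from -1.27 ± 0.18 to 1.05 ± 0.13 (adjusted p = 0.000489 for the difference), and Ifit2 from -0.87 ± 0.20 to 1.10 ± 0.14. Complement genes had medians of -0.34 and 0.64, with C1ra, a protease of the first component, at -1.02 and -0.34 in experiment 1 and 1.47, 0.85, 1.25 and 1.44 in experiment 2. Antigen presentation genes had -0.20 and 0.07. H2-Aa, a class II chain, was at -1.18 and -0.88 in experiment 1 and 0.57, 1.04, 0.60 and 1.32 in experiment 2, and Cd74, the invariant chain, at -0.44 ± 0.23 and 1.04 ± 0.16.

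Endothelial genes went the other way from the immune lists, with 14 of 16 positive in experiment 1 (median 0.40, none called) and 15 of 16 negative in experiment 2 (median -0.91, 12 called negative against 11.0% of all features). Positive on both arrays of experiment 1 and negative on all 4 of experiment 2 were 10 of 16, against 5.48% of all features. By way of HF3 and HF4 15 of 16 were negative (medians -0.55 and -1.05), and with group values from all 34 arrays the median of experiment 1 was -0.18. The receptor gene Tie1 stood at 0.67 and 0.81 in experiment 1 and -1.38, -0.74, -1.93 and -0.93 in experiment 2, a difference of -1.99 ± 0.27 (adjusted p = 0.00232). Emcn, a sialomucin of capillaries and veins, was 0.60 and 0.94 in experiment 1 and -0.89, -0.94, -1.73 and -0.57 in experiment 2. Flt1, a VEGF receptor gene, was the 1 member negative on all 6 arrays, at -0.19 ± 0.18 and -0.41 ± 0.13.

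Smooth muscle genes had medians of 0.07 and -1.33, with 5 of 9 called negative in experiment 2 (11.0% of all features). Acta2, smooth muscle actin, stood at 0.62 and 0.83 in experiment 1 and -2.90, -2.55, -3.55 and -2.21 in experiment 2, and Myh11, its myosin heavy chain, at 0.66 ± 0.20 and -2.0 ± 0.14. Mylk, the myosin light chain kinase, was instead negative on all 6 arrays (-0.44 ± 0.23 and -1.33 ± 0.16). The epididymal duct has a wall of smooth muscle, and the epididymis genes had their lowest values on the same 4 arrays of experiment 2. Their part in the muscle values was not tested.

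Mesothelial genes, which mark the surface layer of the fat pad, were negative for 9 of 10 in experiment 1 (median -1.31, 4 called negative against 0.192% of all features) and positive for 7 in experiment 2 (median 0.32). The routes from other arrays of experiment 1 had 7 of 10 positive by way of HF3 (median 0.13) and 9 by way of HF4 (median 0.85). Gpm6a, a membrane glycoprotein, stood at -1.71 and -1.49 in experiment 1 and 1.14, 1.28, 1.04 and 1.49 in experiment 2 and was called in both experiments (adjusted p = 0.0169 and adjusted p = 0.000175). The mucin gene Muc16 was at -0.95 ± 0.23 and 1.36 ± 0.16. The keratin genes Krt8 and Krt18, which all simple epithelia express, were negative on all 6 arrays instead. Krt18 had -2.11 and -1.73 in experiment 1 and -2.85, -2.59, -3.29 and -2.21 in experiment 2, and Krt8 was -1.42 ± 0.30 and -2.58 ± 0.21. By way of HF3 Krt8 and Krt18 were -0.99 and -0.71, and by way of HF4 they were 2.49 and 2.5.

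Skeletal muscle genes had medians of -0.17 and 0.01, and 9 of 10 were negative in experiment 1. Negative on all 6 arrays were 2 of them, Acta1 and Mylpf, against 3.41% of all features. On all 4 estimates 4 of 10 were negative (40.0%), against 4.88% of all features. Acta1, skeletal actin, was called in both experiments, at -1.83 and -2.0 in experiment 1 and -0.83, -0.93, -0.74 and -1.46 in experiment 2. Its routes gave -2.12 and -1.97, close to the direct value of experiment 1. Neutrophil genes had medians of -0.27 and 0.07, with 3 of 12 called positive and 3 negative in experiment 2 (7.05% and 11.0% of all features). Red cell precursor genes had -0.80 and -0.06 over 5 genes.

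Acute phase genes had medians of -0.18 and 0.16, but Lcn2 and Orm1 were negative on all 6 arrays. Lcn2 encodes an iron-trapping lipocalin that neutrophils and epithelia make, and it stood at -1.13 and -0.82 in experiment 1 and -4.10, -3.33, -5.03 and -3.33 in experiment 2. Orm1, an acute phase glycoprotein, was -0.18 ± 0.23 and -1.71 ± 0.16. Prostanoid and leukotriene genes had medians of -0.14 and 0.52, with 9 of 18 called positive and 1 negative in experiment 2 (7.05% and 11.0% of all features). Ptgs2, the inducible cyclooxygenase, was at -0.83 and -0.34 in experiment 1 and 2.08, 1.75, 2.10 and 2.05 in experiment 2, and Ptgds, a prostaglandin D synthase that is abundant in the epididymis, at -0.70 and -0.36 in experiment 1 and -2.64, -2.62, -3.28 and -2.61 in experiment 2. Lcn2 and Ptgds were lowest on the second-date array with HF0 in Cy3, where the epididymis median was also lowest. That array had the widest spread of the 6 over features (standard deviation 0.75), and Cidec and Gpd1 were lowest there too. The part of epididymal RNA in Lcn2 and Ptgds was not tested.

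Among genes that answer to handling and time of day, the difference between experiments was called for 4 of 22 immediate early, 1 of 19 heat shock, 3 of 18 hypoxia and 4 of 16 circadian genes, against 9.36% of all features. Immediate early genes were negative for 20 of 22 in experiment 1 (median -0.39) and had a median of 0.07 in experiment 2. By way of HF3 17 of 22 were positive (median 0.14), and by way of HF4 10 were (median -0.04). Klf4 turned from -0.66 ± 0.23 to 1.15 ± 0.16 and Myc from -0.54 ± 0.20 to 1.34 ± 0.14, both transcription factors. Heat shock and unfolded protein response genes had medians of -0.19 and 0.16. The co-chaperone gene Dnajb1 was negative on all 6 arrays (-0.94 and -0.55 in experiment 1 and -0.50, -1.53, -1.24 and -0.22 in experiment 2), whereas the chaperone gene Hsp90aa1 had -0.59 ± 0.28 and 1.01 ± 0.20. Hypoxia response and glycolysis genes lay near 0 (-0.08 and -0.03), with Hmox1, the heme oxygenase, at -0.91 ± 0.25 and 1.02 ± 0.18.

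Circadian genes had medians of -0.10 and 0.22. Nr1d2, a repressor in the clock loop, stood at -0.79 and -0.81 in experiment 1 and 0.92, 1.15, 1.36 and 1.15 in experiment 2, and Dbp, an output factor, at -0.68 ± 0.19 and 0.37 ± 0.14. The activators Arntl (0.30 ± 0.20 and 0.43 ± 0.14) and Clock (0.10 ± 0.18 and 1.01 ± 0.13) were positive on all 6 arrays. The time of day of sampling is not given in the labels.

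**Figure D4:**
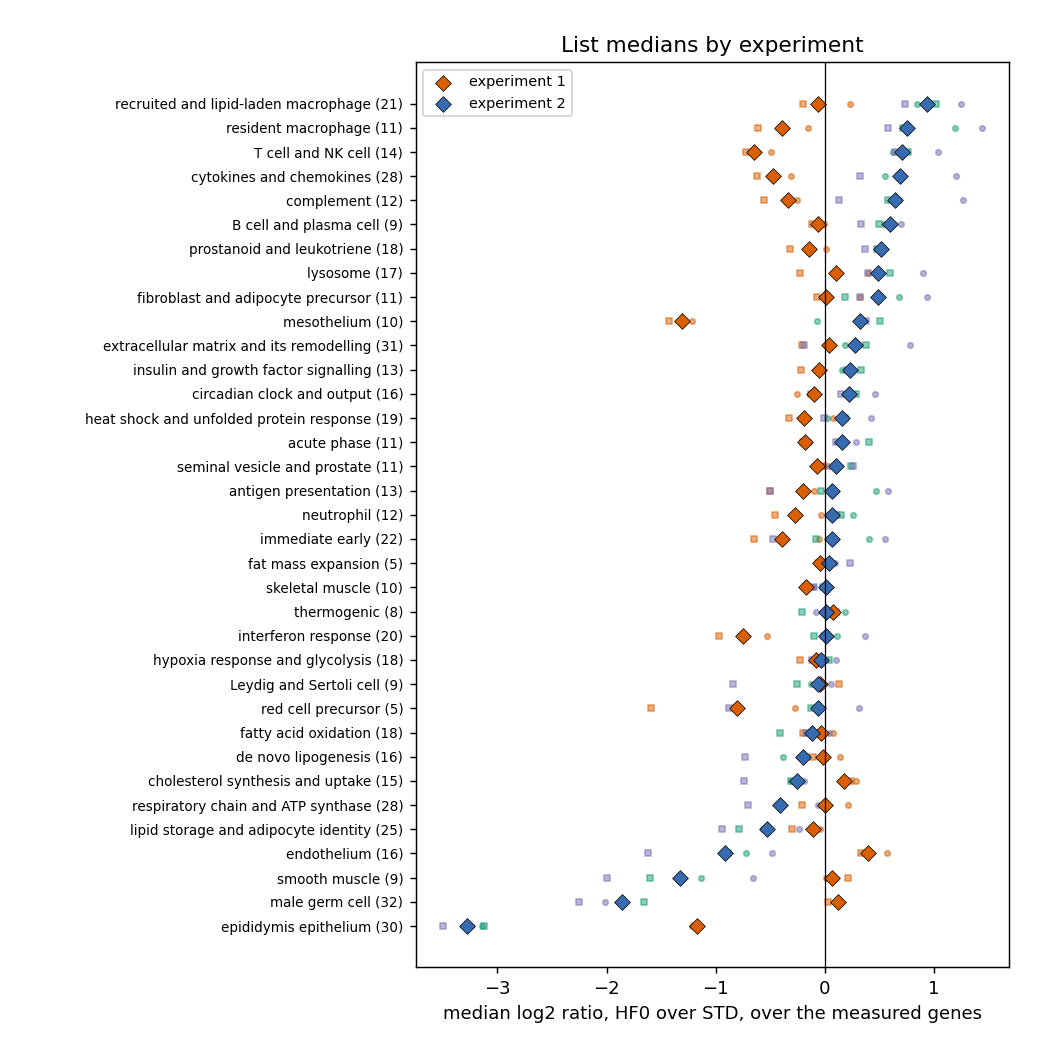
Median log2 ratio of HF0 over STD for 35 gene lists, ordered by experiment 2, with the number of measured genes in brackets. Diamonds are the experiments (orange 1, blue 2) and small symbols the arrays, coloured as orange for experiment 1, green and purple for the 2 dates of experiment 2, with squares for HF0 in Cy3 and circles for HF0 in Cy5. Most immune lists lie left of 0 in experiment 1 and right of it in experiment 2, endothelium does the reverse, and epididymis genes are lowest in experiment 2.

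Over all genes with a symbol whose 6 arrays shared a sign, the order was taken by the smaller of the 2 experiment values. The positive end was led by Mmp12, followed by F7, the coagulation factor VII gene (0.81 and 1.02 in experiment 1 and 0.44, 0.90, 1.41 and 1.02 in experiment 2), and Sfrp4. By way of HF3 F7 was 0.43, but by way of HF4 it was -0.12. Scg3, a secretory granule protein, was 0.79 and 1.0 in experiment 1 and 0.74, 1.5, 0.74 and 2.09 in experiment 2 and also positive by both routes (1.19 and 0.74). Iglv1, an immunoglobulin light chain segment, had 1.08 ± 0.18 and 0.85 ± 0.12, so that it was about as far from 0 in experiment 1 as in experiment 2. Hmcn2, an extracellular hemicentin, stood at 0.76 ± 0.19 and 0.84 ± 0.13, and Gpr18, a receptor for lipid ligands, at 0.74 ± 0.27 and 1.11 ± 0.19. The negative end was led by Lcn5, Cst11, Spink12 and Defb20.

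The largest differences between experiments went beyond the lists. On the positive side Casp4, an inflammatory caspase, turned from -1.22 ± 0.22 to 1.96 ± 0.15, and Ogn, the matrix proteoglycan osteoglycin, stood at -0.77 and -0.26 in experiment 1 and 2.46, 2.58, 2.65 and 2.74 in experiment 2. The 4 arrays of experiment 2 agreed closely on Ogn. On the negative side Tnp1 and Tnp2 led with differences of -5.64 ± 0.23 and -5.64 ± 0.24. Serpinc1, the antithrombin gene, was -1.52 and -1.39 in experiment 1 and -4.83, -6.27, -6.84 and -6.01 in experiment 2, and Cldn2, a tight junction claudin, -0.15 and -1.26 in experiment 1 and -4.92, -4.77, -5.66 and -5.36 in experiment 2. Both were negative on all 6 arrays and far lower in experiment 2.

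**Figure D5:**
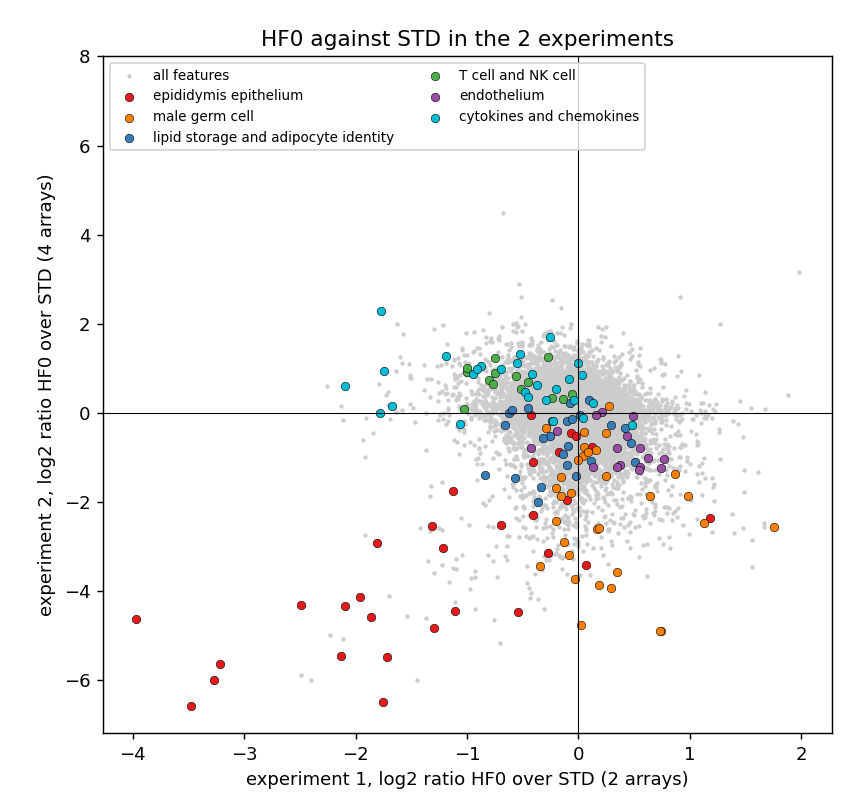
Log2 ratio of HF0 over STD in experiment 1 (x axis, mean of 2 arrays) against experiment 2 (y axis, mean of 2 dye swaps), 1 point per feature, with 6 lists in colour. The grey cloud of all features has r = -0.07; epididymis genes fill the lower left, germ cell genes the lower middle, and T cell genes and cytokines the upper left.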

How the data were processed

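The log2 ratios the authors deposited, 1 per probe and array, cover 25344 probes with no missing value, and the medians of the 6 arrays lay between -0.062 and 0.019. How background and dye bias were treated, which dye was the numerator and the base of the log are not stated there. Base 2 was assumed, since 7.99 on a log10 scale would exceed the range of a 16-bit scanner (4.82), and no value was turned into a fold. RNA was extracted with Trizol or Qiagen reagents, per the labels. With no intensities in the table, dim spots were kept, and precision is limited by the few arrays. All columns of the table were mapped (0 unused).

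Probes took their symbols from the platform annotation (21082 with 1 symbol, 30 with several, 4232 with none; 20456 matched the reference gene table by gene ID). Probes of a gene were averaged (1668 genes), which gave 22879 features, 18617 of them with a symbol. Each array was centred on its median and turned to HF0 over STD, and dye swaps were averaged. The main test (n = 2 experiment values, 1 residual and 2.19 prior degrees of freedom) and the array-error fit (6 arrays, 1 coefficient per experiment and a dye term, 3 residual and 5.8 prior degrees of freedom) used limma 3.58.1 in R 4.3.3, as 2-sided tests with Benjamini-Hochberg adjustment. Averages were taken in Python 3.11.15 (pandas 2.3.3, numpy 2.4.6) and plots drawn with matplotlib 3.10.9.

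The tests were run on simulated data of 22879 features. The main test recovered 0 of 100 features changed by 1 and 0 of 100 changed by 2 log2 units. The array-error test recovered 29 and 97 of 100 in experiment 1 (8 false calls), 81 and 99 in experiment 2 (9 false calls), and 4 and 87 for the difference (4 false calls).

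The members and the 35 lists (20 of pathways, 15 of cell markers; 562 of 623 names measured) were chosen with earlier results of these data known, so no list was tested as a set. Genes were named by rule: the 10 most extreme on each side by the smaller experiment value among genes whose 6 arrays share a sign, up to 4 per list and side of that kind, the 8 largest differences between experiments each way, up to 3 per list that turned in all arrays, and a set of 15 metabolic and inflammatory genes whatever their values. Alternatives were scale normalization, no centring, single probes, a robust prior, no dye term, all 34 arrays by least squares, dye swaps as replicates, and leaving out each array. Promoters came from RefSeq.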

Additional observations from a re-analysis of the deposited data

Results flagged for a closer look

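Within the 4 arrays of experiment 2, 3 of 140 groups of values tested held an array far from the others by Dixon's criterion, where chance gives about 1 in 20. Aqp7 was at -0.86 on the first-date array with HF0 in Cy3 and between -0.14 and -0.03 on the others. Ptgs2 was at 1.75 on the first-date array with HF0 in Cy5 and between 2.05 and 2.10 on the others. Ptgds was at -3.28 on the second-date array with HF0 in Cy3 and between -2.64 and -2.61 on the others.

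For 13 lists the median lay on one side of 0 on both arrays of experiment 1 and on the other side on all 4 arrays of experiment 2. The difference of the list medians was not tested. With group values from all 34 arrays the medians of experiment 1 for cytokines, resident macrophage, neutrophil, B cell, endothelium and male germ cell changed sign. From experiment 1 to experiment 2 the median went from -0.05 to 0.23 for insulin and growth factor signalling, from 0.18 to -0.25 for cholesterol synthesis and uptake, and from -0.10 to 0.22 for the circadian list. For immune lists it went from -0.47 to 0.69 (cytokines and chemokines), from -0.34 to 0.64 (complement), from -0.39 to 0.75 (resident macrophage), from -0.27 to 0.07 (neutrophil), from -0.65 to 0.71 (T cell and natural killer cell) and from -0.06 to 0.60 (B cell). For the other cell lists it went from 0.40 to -0.91 (endothelium), from 0.07 to -1.33 (smooth muscle), from 0.12 to -1.86 (male germ cell) and from -0.07 to 0.10 (seminal vesicle and prostate).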

How the results depend on the processing

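The count over both experiments was 0 under every alternative run. In experiment 1 the count of 59 became 676 under scale normalization and 28 with no dye term. With single arrays left out it ran from 0 (without either array of experiment 1) to 100 (without the first-date array with HF0 in Cy3), and it was 12 without the second-date array with HF0 in Cy5. With single arrays left out, the count of 4121 in experiment 2 ran from 2478 (without the second-date array with HF0 in Cy5) to 4037. Under the same omissions the count of 2141 for the difference ran from 767 (without the array of experiment 1 with HF0 in Cy3) to 2126, with 860 without the other array of experiment 1 and 1270 without the second-date array with HF0 in Cy5. The causes were not tested. Each ratio pairs HF0 with STD on 1 array, and the dye swaps were averaged for an experiment's value. The labels give no replicate numbers shared between groups, so the arrays were not paired in any other way. Group values from all 34 arrays turned the sign of these genes in experiment 1: Lep -0.12, Slc2a4 -0.17, Cd36 -0.76, Aqp7 -0.55, Me1 -0.18, Scd1 -0.68, Insr 0.018, Adgre1 0.35, Cd14 0.15, Cd163 0.20, Tnf 0.023, Ccl2 0.12, Cxcl2 0.41, Ptgs2 0.091, Tie1 -0.29, Tnp1 -0.88, Tnp2 -0.62, Prm1 -1.20, Arntl -0.22, Uqcrfs1 0.13, Hmox1 0.15, Casp4 0.033, Ctsd -0.40. Of these Tnf alone was called. Group values from all 34 arrays also turned 10 of 35 list medians of experiment 1, and leaving out 1 array turned 4 or 6 in experiment 1 and 1 to 4 in experiment 2. Scale normalization turned the de novo lipogenesis median to 0.01 and Insr to 0.021 in experiment 1. With single arrays left out the sign also turned for Pparg (-0.57 to 0.014 in experiment 2), Slc2a4 (0.00 to 0.22 in experiment 1), Scd1 (-0.078 to 0.36 in experiment 1), Fasn (-0.12 to 0.47 in experiment 1), Fasn (-0.23 to 0.58 in experiment 2), Mest (-0.13 to 0.052 in experiment 1), Insr (-0.23 to 0.18 in experiment 1), Ucp1 (-0.008 to 0.90 in experiment 2), Adgre1 (-0.37 to 0.24 in experiment 1), Prm1 (-0.26 to 0.31 in experiment 1). None of these values was called. Calls of Col5a2, Ms4a1, Ndufa9, Dnajb1 and Hsp90aa1 in experiment 2 were also lost with single arrays left out.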

Other observations

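Actb, the cytoplasmic actin gene, was printed many times on these arrays and gives a view of the precision within an array. Its 305 probes had a standard deviation between 0.07 and 0.24 on the 6 arrays, while the mean over probes ran from -0.76 to 0.37 between arrays. Gapdh, a glycolytic enzyme gene, had 257 probes with a standard deviation between 0.07 and 0.28, and its mean ran from -0.60 to 0.47. For both genes the arrays lay farther apart than the repeated spots within an array.

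Of all features 10.8% had 1 sign on both arrays of experiment 1 and the other sign on all 4 arrays of experiment 2. Those with the same sign on all 6 arrays made up 2.1% (positive) and 3.41% (negative), so a complete turn between the experiments was more frequent than a shared sign.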
